A study of Danio rerio with 16 samples.

Results

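Bulk-seq of dissociated testes from control zebrafish was compared between 2 sets of fish: CB, from fish of 1.5 years of age (n = 3), and CD, from fish of 1 year of age (n = 3). These 6 libraries, of 16 samples in the series, were chosen by their sample labels, and the ages come from the study's methods. All fish of CB and CD were males of the AB strain that had received vehicle (0.1% DMSO) for 1 h at 3 and again at 7 weeks post-fertilization. The labels list a TCDD dose for control fish as well, and the exposure given in the methods was used. For CD, 1 testis of each fish was minced and digested with collagenase and the whole suspension was used, while the contralateral testis stayed intact (CI, n = 3). For CB, both testes of each fish were digested by the same protocol and the suspension was divided between single cell capture and bulk-seq. The same was done for the TCDD-exposed fish of the same age (TB, n = 2). By the methods, those fish had received water-borne TCDD for 1 h at 3 and again at 7 weeks post-fertilization. CB and CD therefore differ in age, in the amount of tissue taken from each fish, in the splitting of the suspension and in the count table that holds them. No label states whether the 2 sets were dissociated, prepared or sequenced together. Age cannot be told apart from batch or from any of these differences. The 5 libraries of TB and CI were set beside CB and CD as levels only.

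The zebrafish testis is organized in cysts, in which Sertoli cells surround a clone of germ cells that passes together through mitosis, meiosis and spermiogenesis. Leydig cells, smooth muscle-like peritubular cells, vessels and leukocytes lie between the tubules. Leydig cells make androgens, of which 11-ketotestosterone is the main form in fish. Enzymatic dissociation releases germ cells readily and is known to switch on immediate early genes, and extended cells and cells held in matrix can be lost from the suspension. In bulk libraries, fewer cells of a type and less RNA per cell cannot be told apart.

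Total counts ran from 17638247 to 36172885 in CB and from 22948119 to 26405924 in CD, and from 4828801 to 29144951 in the libraries of TB and CI. At these depths, 3 counts corresponded to 0.0829 to 0.17 counts per 1000000 (CPM) in CB and CD. Of 14792 transcripts present in both count tables, 12860 passed the filter on low counts and were tested. Levels are given throughout as CPM after scaling all 11 libraries together by TMM, a method that corrects for differences in composition. Log2 fold changes are of CB over CD and come from an edgeR quasi-likelihood fit of the 6 libraries, with Benjamini-Hochberg adjusted p-values. No label states that libraries of a group were separate batches, and each is from separate fish as far as the methods describe. The methods do state that the results came from 3 independent exposure experiments, run as successive blocks. No label gives the block of a library, so the spread within a set may include that between blocks.

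CB and CD separated on the first principal component, which held 36.3% of the variance of the 6 libraries. CB libraries were placed at 28.6, 58.8 and 31.8 and CD libraries at -47.2, -33.1 and -38.9. CB2 lay apart from the other CB libraries on the second component (19.3% of the variance), at -33.7 against 25 and 16.7. The distance between 2 libraries, taken as the root mean square difference in log2 CPM over the transcripts tested, was 0.74 to 0.87 within CB, 0.75 to 0.86 within CD and 0.87 to 1.07 between them. The difference between the sets was thus little larger than the spread between libraries of a set. In a second analysis of all 11 libraries, TB2, the shallowest library, was farthest from the rest, and CI2 stood apart from the other CI libraries.

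**Figure D1:**
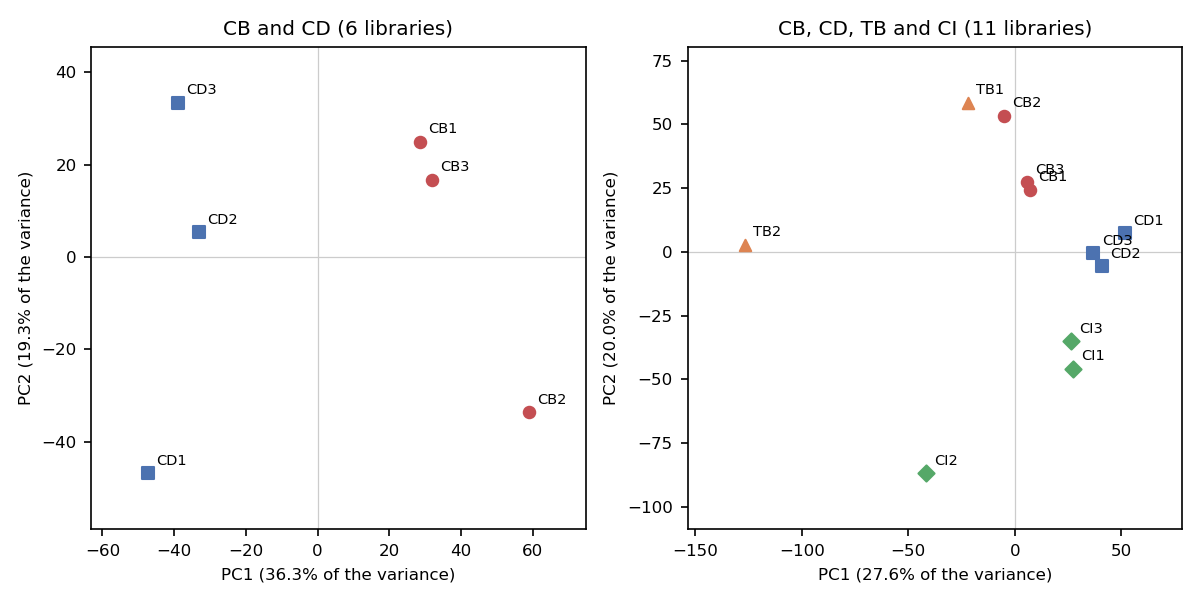
Principal components of log2 CPM for the 6 libraries of CB and CD (left) and for all 11 bulk-seq libraries (right); each point is 1 library, and the share of variance is given on each axis. CB (red circles) and CD (blue squares) lie on opposite sides of PC1 on the left, with CB2 apart on PC2; on the right TB2 and CI2 lie far from their groups.

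At an adjusted p under 0.05, 65 transcripts (0.505% of those tested) differed between CB and CD. Of these, 37 were higher in CB (0.288%) and 28 were lower (0.218%). The log2 fold changes of the higher transcripts had a median of 2.40, and those of the lower a median of -1.45. In all 65, the 3 CB libraries did not overlap with the 3 CD libraries. Over all transcripts tested, all 3 CB libraries lay above all 3 CD libraries in 14.5%, and below them in 12.6%. With the cut-offs of the study (p under 0.01 before adjustment, log2 fold change of 1 or more in either direction), 319 transcripts were higher in CB (2.48%) and 193 were lower (1.5%). At an unadjusted p under 0.05, 10.6% of the transcripts tested were higher and 9.88% lower. Counts of list members at that threshold below are to be read beside these shares.

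The number called rested on single libraries. The count was 40, 312 and 19 without CB1, CB2 and CB3, and 13, 17 and 26 without CD1, CD2 and CD3. Many calls were close to the threshold, and 32 of the 65 shared an adjusted p of 0.0492. With upper quartile scaling, 235 were called and the share higher in CB rose from 56.9% to 80%. DESeq2 called 610 higher and 405 lower of 14226 transcripts, and its counts for gene lists below are to be read beside these. Of the 30 called transcripts named here, 9 were called under every one of the 17 alternatives (rn7sk, dbx1b, rsrc1, her9, hspa12b, prrg1, selp, nkl.1 and tnfrsf1a). All 30 kept their direction in every alternative in which they were tested.

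**Figure D2:**
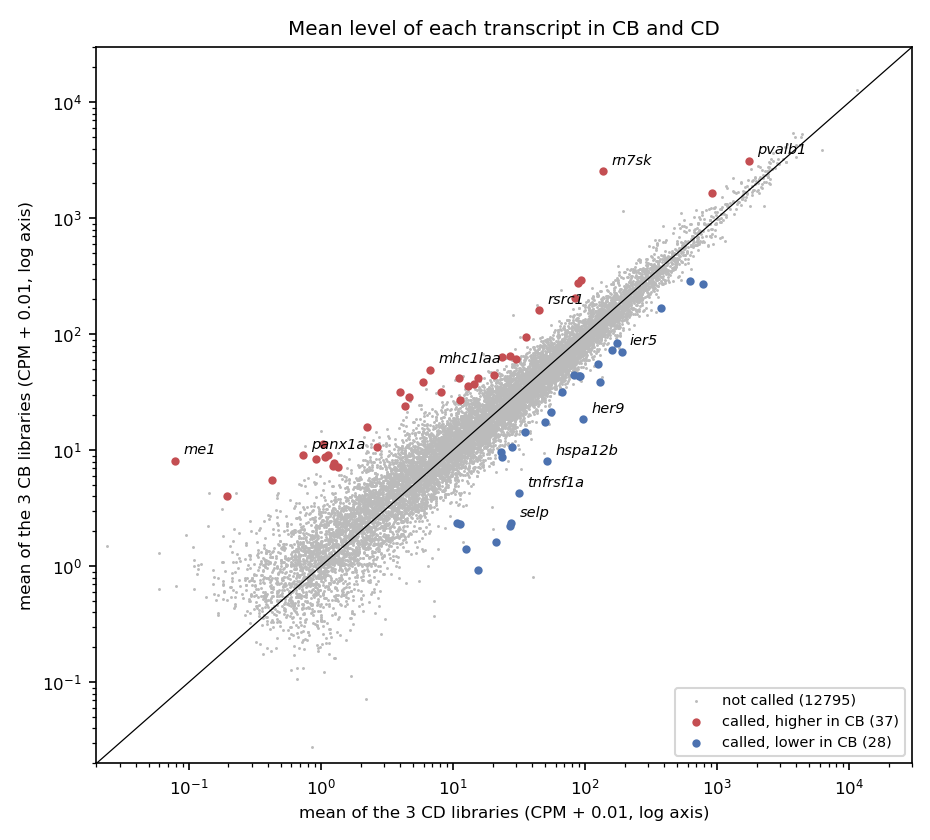
Mean level of 12860 transcripts in CD (horizontal) and in CB (vertical), in CPM plus a small constant on log axes, with the line of equal levels. Red points are from the 37 called higher in CB and blue points from the 28 called lower. Transcripts at or near 0 CPM in a set fall outside the axes, among them mir18a, called higher, with 0 counts in CD. Called transcripts run from the most abundant, such as pvalb1, to those near 1 CPM, and rn7sk lies farthest from the line among transcripts above 100 CPM.

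The strongest call was a noncoding RNA. The libraries were prepared for the 3′ ends of mRNA. Whether their counts follow the amount of a noncoding RNA, such as this one or the microRNA precursors below, was not tested. rn7sk encodes the 7SK small nuclear RNA, which holds the elongation factor P-TEFb in an inactive complex and is made by RNA polymerase III. It was at 2701, 2379 and 2606 CPM in CB and at 111, 157 and 147 CPM in CD. CB libraries were all far above CD libraries, with a log2 fold change of 4.18 ± 0.19 (SE; adjusted p = 4.6e-06). It was also high in TB, at 4814 and 4069 CPM, and low in CI, at 202, 219 and 248 CPM, so that libraries of 1 count table were all above libraries of the other. Age, batch and count table cannot be told apart in this difference. snrnau11, the other small nuclear RNA tested, had a log2 fold change of 1.49 ± 0.68 and an adjusted p of 0.26.

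Other noncoding RNAs were few. Of 38 microRNA precursors tested, 2 were called, both higher in CB, against 0.505% of all transcripts; they were chosen for mention after their values were seen. mir202, known in vertebrates as a gonad-specific microRNA, was at 3.19, 3.01 and 5.88 CPM in CB and at 0.0351, 0.386 and 0.128 CPM in CD. It was far higher in intact testis, at 68.8, 100.1 and 117 CPM in CI. mir18a, a member of the mir17-92 family, had 152 counts over the 3 CB libraries and 0 over the 3 CD libraries; against a floor of 3 counts over the CD libraries it was at least 49.1-fold higher in CB. The adjusted p of both was 0.049, and both calls were lost with limma voom, which called 0 microRNA precursors, and without any 1 library other than CB2. No microRNA precursor was called lower by edgeR or by DESeq2, which called 6 higher, and before adjustment 9 had p under 0.05 and were higher, with 0 lower. The share higher at that threshold was 10.6% over all transcripts tested. Levels of the precursors were low, with a median of 1.21 CPM for the CB means. All 3 CB libraries lay above all 3 CD libraries in 10 of the 38 and below them in 2 (14.5% and 12.6% over all transcripts tested).

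Nuclear and regulatory genes were among the calls higher in CB. dbx1b, a homeobox transcription factor known for its role in the neural tube, was at 26.1, 35.9 and 24.8 CPM in CB and at 5.52, 3.78 and 4.54 CPM in CD (log2 fold change 2.62 ± 0.27 SE, adjusted p = 0.0032). rsrc1, which encodes a serine/arginine-rich protein involved in splicing, was at 186, 161 and 141 CPM in CB against 37.6, 45.9 and 50.6 CPM in CD (1.83 ± 0.20, adjusted p = 0.0040). For both genes, the groups were separated by a wide gap. TB lay on the side of CB (53 and 13.6 CPM for dbx1b, 122 and 174 CPM for rsrc1) and CI with CD (4.40 to 6.05 CPM and 42.8 to 55.4 CPM).

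Genes for membrane proteins and signaling followed. mhc1laa, an MHC class I gene of the L lineage of fishes, was at 41.9, 60.5 and 46.2 CPM in CB and at 3.2, 7.25 and 9.67 CPM in CD (log2 fold change 2.86 ± 0.37 SE, adjusted p = 0.010). panx1a, a pannexin channel that releases ATP, was at 9.51, 11.6 and 6.11 CPM in CB and at 0.527, 0.515 and 1.11 CPM in CD (3.62 ± 0.47, adjusted p = 0.010). ddhd1b, a phospholipase A1, was at 235, 368 and 274 CPM in CB and at 95.5, 103.4 and 79.5 CPM in CD (1.63 ± 0.21, adjusted p = 0.011). These 3 genes had no overlap between groups, and their CI libraries (8.16 to 10.0, 0.754 to 1.84 and 104 to 148 CPM) were nearer to CD than to CB. The call for mhc1laa was lost without CD2, that for panx1a without CD1 or CD2, and that for ddhd1b without any 1 of the CD libraries. grik5, a kainate receptor subunit, had a log2 fold change of 2.98 ± 0.41 and lost its call without CD1 or CD2.

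4 of the largest changes were uneven within CB. vav3b, a member of the Vav family of guanine nucleotide exchange factors, was at 5.98, 19.4 and 8.41 CPM in CB and at 0.808 to 1.41 CPM in CD. adamts10, an extracellular metalloprotease, was at 3.64, 15.5 and 6.94 CPM in CB and 0.856 to 1.2 CPM in CD, and gbgt1l4, a glycosyltransferase, at 3.69, 15.5 and 8.37 CPM against 0.856 to 1.58 CPM. In these 3 genes CB2 was the highest of the CB libraries, and the calls were lost without CB3 or any 1 of the CD libraries. me1, the cytosolic malic enzyme that supplies NADPH, went the other way, at 13.9 and 10.1 CPM in CB1 and CB3 but 0.529 CPM in CB2, and at 0.0351 to 0.128 CPM in CD. The call for me1 was lost without any 1 library other than CB2, and the adjusted p of all 4 was 0.025 to 0.049. cxcl18b, a chemokine of fishes that draws neutrophils, was even in CB, at 5.43, 5.69 and 5.65 CPM, and was at 0.0858 to 0.770 CPM in CD (log2 fold change 3.71 ± 0.64 SE, adjusted p = 0.049), with the call lost without CB1, CB3, CD1 or CD2.

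Among the transcripts lower in CB, several of the largest changes were of genes with similar levels in CD and CI or higher levels in CI. selp encodes P-selectin, an adhesion receptor of activated endothelium and platelets. It was at 1.51, 2.83 and 2.67 CPM in CB and at 37.8, 17.7 and 27.2 CPM in CD (log2 fold change -3.57 ± 0.37 SE, adjusted p = 0.0032), and at 17.4 to 35.3 CPM in CI. hspa12b, a distant member of the HSP70 family known from endothelium, was at 10.1, 7.56 and 6.71 CPM in CB, at 52.8, 42.5 and 58.8 CPM in CD (-2.70 ± 0.24, adjusted p = 0.0019) and at 51 to 76 CPM in CI. CB libraries were therefore below all CD and CI libraries for both genes. Of the 19 endothelial list members tested, none was called (4 were higher and 3 lower with p under 0.05 before adjustment, and DESeq2 called 3 higher and 1 lower).

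tnfrsf1a, the receptor for tumor necrosis factor that can signal to NF-κB or to cell death, was at 5.26, 4.39 and 3.13 CPM in CB and at 47.3, 21.8 and 25.7 CPM in CD (log2 fold change -2.92 ± 0.35 SE, adjusted p = 0.0073). prrg1, a membrane protein with a Gla domain, was at 2.57, 1.37 and 0.919 CPM in CB and at 25.2, 20.5 and 18.5 CPM in CD (-3.77 ± 0.39, adjusted p = 0.0032). Both genes were at 17.8 to 76.2 CPM in CI and at 2.94 to 5.47 CPM in TB.

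nkl.1, which encodes an NK-lysin, an antimicrobial protein of the granules of cytotoxic lymphocytes, was at 3.02, 2.38 and 1.2 CPM in CB and at 19.5, 22.7 and 39.1 CPM in CD (log2 fold change -3.66 ± 0.41 SE, adjusted p = 0.0041). It was highest in CI, at 97.4 to 334 CPM, and lowest in TB, at 0.923 and 1.36 CPM. The leukocyte list did not move with it: of 36 members tested 0 were called by edgeR (3 were higher and 3 lower with p under 0.05 before adjustment, and DESeq2 called 2 higher and 0 lower), and summed levels were 821 to 1142 CPM in CB and 777 to 1016 CPM in CD. alp3, an alkaline phosphatase, was at 0.895, 1.77 and 1.56 CPM in CB and at 18.6, 6.4 and 12.7 CPM in CD, and at 4.90 and 4.52 CPM in TB. The call for alp3 was lost without CB1, CB3, CD1 or CD3.

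A different pattern was seen in her9, a hairy-related transcriptional repressor of the basic helix-loop-helix class. her9 was at 23.1, 18.4 and 14.2 CPM in CB and at 88.5, 95.9 and 105 CPM in CD, a log2 fold change of -2.41 ± 0.22 (SE; adjusted p = 0.0019). CI was at 27.0, 14.1 and 29.2 CPM and TB at 12.3 and 6.11 CPM. CD was thus the set that stood apart, above all 8 libraries of the other groups, and the intact testes of the same fish were close to CB.

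3 immediate early and stress-response genes were lower in CB in the same way. Of 54 members of the immediate early gene list tested, edgeR called 0 higher and these 3 lower (0.218% of all transcripts tested were called lower). ier5, an immediate early transcription regulator, was at 78.9, 49.4 and 85.1 CPM in CB, at 149, 181 and 239 CPM in CD and at 67.7 to 96.2 CPM in CI (log2 fold change -1.44 ± 0.26 SE). dusp2, a nuclear phosphatase of MAP kinases, was at 8.78, 9.31 and 8 CPM in CB, at 17.5, 24 and 28.6 CPM in CD and at 8.04 to 9.34 CPM in CI (-1.45 ± 0.26). nfkbiab, an IκBα gene that is itself a target of NF-κB, was at 49, 47.3 and 35.6 CPM in CB, at 92.7, 78.2 and 99.2 CPM in CD and at 35.9 to 54.5 CPM in CI (-1.07 ± 0.20). In each, CD stood above CB, TB and CI without overlap. The adjusted p of all 3 was 0.049, and each call was lost with limma voom and without any 1 library other than CB2. Over the list, DESeq2 called 1 higher and 8 lower and limma voom called 0.

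The list did not move as a block. Its median log2 fold change was -0.22, against -0.02 over all transcripts tested, and 7 members were higher and 12 lower with p under 0.05 before adjustment. ccn2a, a matricellular gene driven by YAP, was at 10.4, 2.09 and 2.44 CPM in CB and at 0.385 to 0.901 CPM in CD, and was mentioned for its size after its values were seen; it was not called (log2 fold change 2.78, adjusted p = 0.074). The share called lower by edgeR was 0.218% over all transcripts tested. Of 34 members of the unfolded protein response list, 1 was called by edgeR, lower in CB (4 lower by DESeq2 and 0 by limma voom). This was atf4b, the transcription factor translated when eIF2α is phosphorylated, at 78.2, 88.5 and 84.3 CPM in CB and 144, 208 and 176 CPM in CD (-1.10 ± 0.19 SE, adjusted p = 0.049), with CI between them at 111 to 140 CPM; the call was lost without any 1 library other than CB2. A further 10 members were lower with p under 0.05 before adjustment and 0 were higher, and the median of the list was -0.16. Among all transcripts tested, 9.88% were lower at that threshold. Heat shock genes and chaperones had a median of -0.02, with 0 of 46 called by edgeR, 6 higher and 5 lower with p under 0.05 before adjustment, and 1 higher and 2 lower by DESeq2.

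**Figure D3:**
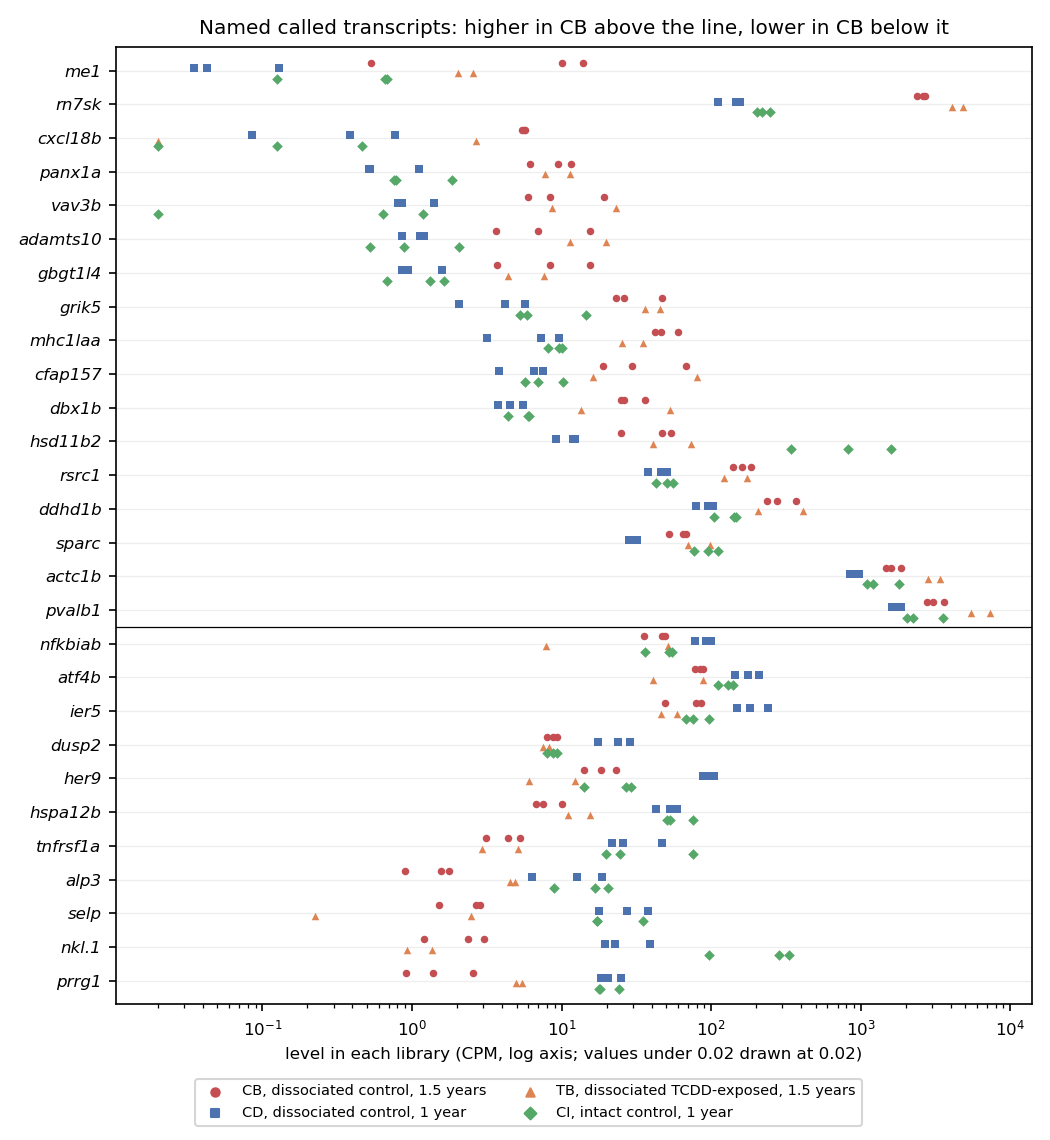
Level of 28 named called transcripts in each of 11 libraries (CPM, log axis), with genes ordered by log2 fold change and those higher in CB above the horizontal line. TB (orange) lies near CB for most genes; CI (green) lies near CD for genes such as rn7sk, rsrc1, selp and hspa12b, near CB for her9, ier5, dusp2 and nfkbiab, and above both for hsd11b2 and nkl.1.

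The positions of TB and CI were counted for all 65 called transcripts. A library was placed on the side of CB or of CD by the midpoint of their mean log2 CPM. TB1 lay on the CB side for 36 of the 37 transcripts higher in CB and for 26 of the 28 lower ones, and TB2 for 35 and 24. CI1, CI2 and CI3 lay on the CB side for 6, 14 and 8 of the 37 and for 9, 9 and 11 of the 28. Both TB libraries were on the CB side and all 3 CI libraries on the CD side for 29 of the 65 (44.6%, with 7.43% over all transcripts tested). For 10 of the 65 (15.4%, with 14.3% over all), TB and CI were all on the CB side. her9, ier5, dusp2, nfkbiab and sparc were among them, and so were hsd11b2 and mir202, for which CI was far above both CB and CD. The only called transcript with TB and CI all on the CD side was alp3. The transcripts were selected for their difference between CB and CD, TB shares its table and age with CB, and CI shares its table, age and fish with CD, so these counts are a description.

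Germ cell transcripts were abundant in all 6 libraries, whose labels give testis as the tissue. sycp1, a component of the synaptonemal complex of meiosis, was at 2384 to 3713 CPM in CB and 2508 to 4282 CPM in CD. dazl, a germ cell RNA-binding protein, was at 824 to 1059 CPM in CB and 687 to 1007 CPM in CD, and ddx4, the Vasa helicase, at 835 to 1404 and 1114 to 1691 CPM. The groups overlapped for all 3 genes. None of 20 spermatogonial, 16 meiotic or 26 spermatid and sperm list members tested was called by edgeR, while 3, 0 and 4 were higher and 2, 3 and 0 lower with p under 0.05 before adjustment, and DESeq2 called 1, 0 and 3 higher and 1, 2 and 0 lower. Their medians were 0.06, -0.20 and -0.10. piwil1, the Piwi protein that binds piRNAs, was at 633, 765 and 640 CPM in CB and at 1123, 1022 and 1020 CPM in CD, without overlap, but missed the threshold (log2 fold change -0.67 ± 0.15 SE, adjusted p = 0.063).

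CB2 was lower than the other CB libraries in late germ cell transcripts. The median deviation of the spermatid and sperm list from the CD mean was -0.92 in CB2 and 0.29 and 0.21 in CB1 and CB3, on the log2 scale. The flagellar list showed the same order, at -0.70 against 0.14 and 0.22. Among 65 flagellar members tested, DESeq2 called 3 higher and 3 lower, limma voom called 0 and edgeR called 1. The share called higher by edgeR was 0.288% over all transcripts tested. The member called by edgeR was cfap157, a protein of cilia and sperm flagella. It was at 29.5, 19 and 68.2 CPM in CB and 7.49, 3.82 and 6.59 CPM in CD (log2 fold change 2.68 ± 0.46 SE, adjusted p = 0.049). The call was lost without any 1 library other than CB2. Of the defining flagellar markers, dnai7 and dnai2a had log2 fold changes of 0.43 and 0.10, and dnai1.2 and dnai4 of -0.71 and -0.60. The spermatid and sperm markers tekt1, tekt2, tekt4 and izumo1 were at -0.58, -0.18, -0.51 and -0.35. None of these markers was called, and CB and CD overlapped for each. The median of the flagellar list was -0.07 and that of the spermatid and sperm list -0.10. Both medians changed sign when CB2 was left out (0.14 and 0.15), so no direction is given for either list.

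The Sertoli, Leydig, and smooth muscle and fibroblast lists had medians above 0, although few members passed the test and some defining markers were flat or lower in CB. Several markers were far lower in CB and CD than in intact testis. gsdf, a TGF-β family factor of Sertoli cells, was at 21.5, 31.7 and 41.7 CPM in CB and at 17, 12.4 and 8.17 CPM in CD, without overlap, and at 1186 to 1795 CPM in CI; it missed the threshold (log2 fold change 1.31 ± 0.33 SE, adjusted p = 0.072). amh, which encodes anti-Müllerian hormone, was at or under 2.35 CPM in all CB and CD libraries and at 5.27 to 13.7 CPM in CI. sox9a, a transcription factor of Sertoli cells, was under 1 CPM in all 6 libraries, with a log2 fold change of 0.09. Of 24 Sertoli list members tested, 0 were called by edgeR and 8 by DESeq2, all higher, and the median was 0.67. With p under 0.05 before adjustment, 10 were higher and 1 lower (10.6% and 9.88% over all transcripts tested). The summed level of the list was 653 to 777 CPM in CB and 507 to 530 CPM in CD, with no overlap. Only 3 members had a mean of at least 50 CPM over CB and CD, with log2 fold changes from -0.15 to 0.81. gsdf, amh and sox9a were not among these, and the list also held a keratin gene. Whether the sum follows the number of Sertoli cells was not tested.

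Of 14 Leydig list members tested, edgeR called 1, DESeq2 3, all higher, and limma voom 0. Among all transcripts tested, edgeR called 0.288% higher. The member called by edgeR was hsd11b2, which encodes the dehydrogenase that inactivates cortisol and takes part in the synthesis of 11-ketotestosterone in fish. It was at 47.2, 24.9 and 53.8 CPM in CB and at 12, 12.3 and 9.20 CPM in CD (log2 fold change 1.88 ± 0.30 SE, adjusted p = 0.036), and at 342, 1607 and 826 CPM in CI. The call was lost without any 1 library other than CB2. cyp17a1, which makes the androgen precursors, was at 30.6, 19.7 and 41.7 CPM in CB, 16.7, 14.9 and 5.39 CPM in CD and 216 to 349 CPM in CI, and was not called (1.29 ± 0.41, adjusted p = 0.12). star, the carrier of cholesterol into mitochondria, overlapped between CB (9.25 to 25.9 CPM) and CD (2.53 to 17.8 CPM). cyp11c1, the 11β-hydroxylase of 11-ketotestosterone synthesis, overlapped as well, at 17.4, 7.46 and 16.8 CPM in CB and 22.1, 11.6 and 3.59 CPM in CD (log2 fold change 0.12). At an unadjusted p under 0.05, 6 Leydig members were higher and 1 lower (10.6% and 9.88% over all transcripts tested). The median of the list was 0.91. The summed level of the list overlapped, at 177 to 388 CPM in CB and 94.2 to 289 CPM in CD.

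Most smooth muscle and fibroblast genes, 24 of 29 tested, had a log2 fold change above 0, against 6256 of all 12860 transcripts tested. sparc, a secreted matrix-binding protein, was at 67.7, 65.3 and 52 CPM in CB, at 28.4, 32.2 and 29.3 CPM in CD and at 76.5 to 111 CPM in CI (log2 fold change 1.01 ± 0.18 SE, adjusted p = 0.049). It was the 1 member called by edgeR (0.288% of all transcripts tested were called higher), whereas DESeq2 called 10, all higher, and limma voom 0. The call for sparc was lost without any 1 library other than CB2. acta2, smooth muscle actin, was at 133, 37.5 and 31.5 CPM in CB, 15.6 to 17.9 CPM in CD and 289 to 551 CPM in CI, and tagln, an actin-binding protein of smooth muscle, at 53.7, 9.6 and 11 CPM against 4.5 to 7 CPM and 245 to 833 CPM. CB1 was the highest CB library for both, and neither was called (adjusted p = 0.074 and 0.097). Of the other transgelin genes on the list, tagln2 overlapped between CB (5.63 to 16.6 CPM) and CD (3.69 to 7.79 CPM). tagln3b went the other way with overlap, at 22, 12.4 and 26.5 CPM in CB and 25.4, 38.3 and 24.3 CPM in CD (-0.56 ± 0.31, adjusted p = 0.33). The median of the list was 0.59, with 14 members higher and 0 lower with p under 0.05 before adjustment. Over all transcripts tested, 10.6% were higher and 9.88% lower at that threshold.

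**Figure D4:**
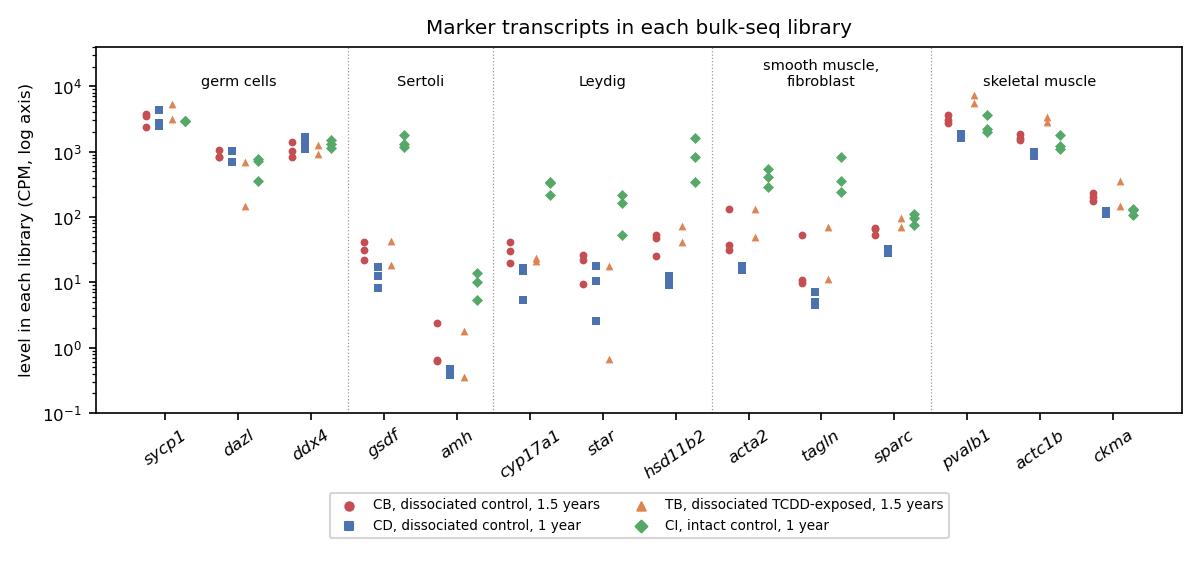
Level of 14 marker transcripts in each of 11 libraries (CPM, log axis), grouped by the cell type they mark. Germ cell transcripts overlap between CB (red) and CD (blue); gsdf, cyp17a1, hsd11b2, acta2 and tagln are at their highest in intact testis (CI, green), and skeletal muscle transcripts are higher in CB than in CD and highest in TB (orange), except for ckma in 1 TB library.

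Endothelial, leukocyte and erythrocyte lists differed less. For endothelial cells, the median was 0.37 and summed levels overlapped (132 to 175 CPM in CB, 109 to 140 CPM in CD). cdh5, VE-cadherin of endothelial junctions, was at 11.5, 25.8 and 17.2 CPM in CB and at 7.87, 4.08 and 10.53 CPM in CD (log2 fold change 1.25 ± 0.39 SE, adjusted p = 0.12). tek, the angiopoietin receptor Tie2, went the other way, at 6.66, 6.5 and 6.94 CPM in CB and 9.56, 14.3 and 8.43 CPM in CD (-0.71 ± 0.30, adjusted p = 0.22). kdrl, a receptor for vascular endothelial growth factor, overlapped between the groups (0.09 ± 0.40). The leukocyte list had a median of -0.11, with 16 of 36 members above 0 (6256 of 12860 over all transcripts tested). The globin hbaa1 was at 22.1, 16.9 and 13.3 CPM in CB and at 28, 37.6 and 48.5 CPM in CD (-1.16 ± 0.27, adjusted p = 0.063). The other defining globins went the other way without overlap. hbae1.1 was at 32.9 to 58.5 CPM in CB and 17 to 25.8 CPM in CD (1.00 ± 0.27, adjusted p = 0.080). hbae3 and hbbe1.1 had log2 fold changes of 0.71 ± 0.22 and 0.55 ± 0.27 (adjusted p = 0.11 and 0.28). The erythrocyte list had a median of 0.38 with 0 of 14 called by edgeR, 2 higher and 2 lower with p under 0.05 before adjustment, and the same numbers by DESeq2. Of the macrophage markers, mpeg1.1 and csf1ra were under 3 CPM in all 6 libraries.

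The skeletal muscle, keratin, collagen, and liver and yolk lists had medians above 0, of similar size. Keratins and collagens are not markers of other tissues only: the Sertoli list held a keratin gene, and the smooth muscle and fibroblast list held collagens. Of 30 skeletal muscle list members tested, 2 were called higher in CB and 0 lower, and 20 were higher and 0 lower with p under 0.05 before adjustment. Among all transcripts tested, 0.288% were called higher, and 10.6% were higher with p under 0.05 before adjustment. All 3 CB libraries lay above all 3 CD libraries in 21 of the 30, against 14.5% of all transcripts tested. The parvalbumin gene pvalb1, whose protein buffers calcium in fast muscle, was at 3023, 3630 and 2763 CPM in CB and at 1758, 1623 and 1848 CPM in CD (log2 fold change 0.82 ± 0.15 SE, adjusted p = 0.049). The sarcomeric actin gene actc1b was at 1601, 1870 and 1483 CPM in CB and at 920, 851 and 977 CPM in CD (0.82 ± 0.15, adjusted p = 0.049). Each call was lost without any 1 library other than CB2. Both were higher still in TB, at 5477 and 7363 CPM for pvalb1 and 2817 and 3408 CPM for actc1b, and CI was at 2033 to 3577 and 1104 to 1813 CPM. The muscle creatine kinase gene ckma was at 201, 235 and 175 CPM in CB and 111 to 122.9 CPM in CD (0.79 ± 0.18, adjusted p = 0.063). Smaller changes were seen in the defining markers acta1b (0.39 ± 0.21, adjusted p = 0.31) and acta1a (0.38 ± 0.23, adjusted p = 0.38). For acta1a, CB and CD overlapped.

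Summed over the list, skeletal muscle transcripts made up 10573 to 13907 CPM in CB and 6764 to 7466 CPM in CD, without overlap. Keratins, which form intermediate filaments of epithelia, had a median log2 fold change of 0.79 over 19 tested and sums of 2266 to 2840 against 1376 to 1525 CPM. Collagens had a median of 0.67 over 27, and genes of liver and yolk, such as the apolipoproteins, 0.62 over 25, with sums of 1535 to 1909 against 959 to 1032 CPM. None of the keratins, collagens or liver genes was called by edgeR, and with p under 0.05 before adjustment there were 14, 11 and 12 higher and 0, 0 and 0 lower. Of the 19 keratins, 15 had a log2 fold change above 0 (6256 of 12860 over all transcripts tested). All 3 CB libraries lay above all 3 CD libraries in 14 keratins and below them in 3 (14.5% and 12.6% over all transcripts tested). DESeq2 called 13, 8 and 9 of the keratins, collagens and liver genes and 19 of the muscle genes, all higher, and limma voom called 0 of the 4 lists. The list medians kept their sign in all 17 alternatives, from 0.62 to 0.83 for muscle, 0.68 to 0.90 for keratins, 0.54 to 0.79 for collagens and 0.56 to 0.72 for liver and yolk. Set against the CD mean, they were also above 0 in every CI library. CI was at 0.18 to 0.42 for muscle, 0.39 to 1.03 for keratins, 0.13 to 0.46 for collagens and 0.24 to 0.68 for liver and yolk. In TB all were at 1.07 or more. CD was thus the lowest of the 4 groups for these lists.

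Abundant members of the muscle, keratin and liver lists had medians of similar size, while collagens varied more. Among those with a mean of at least 50 CPM, 20 muscle genes had a median log2 fold change of 0.76 (0.12 to 0.86), 7 keratin genes 0.79 (0.66 to 1.01) and 8 liver and yolk genes 0.82 (0.50 to 0.89). For 6 collagen genes the median was 0.60 (-0.57 to 0.76), and all 3 CB libraries lay above all 3 CD libraries in 4 of them. Over all 3559 transcripts at or above this level, the median was -0.09, and 429 had all 3 CB libraries above all 3 CD libraries. pvalb1 was at 1623 CPM or more in every library. The liver fatty acid-binding protein gene fabp10a was at 81.5, 97.0 and 82.9 CPM in CB and 47.3, 40.7 and 56.1 CPM in CD. The defining markers of the liver and yolk list, vtg2, vtg3, vtg4 and vtg5, had log2 fold changes of 0.87, 0.32, 0.52 and -0.02. None of these markers was called, and CB and CD overlapped for all but vtg2 (means of 2.34 and 1.26 CPM). The part of muscle, keratin, liver and collagen transcripts in the other differences between CB and CD was not tested.

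**Figure D5:**
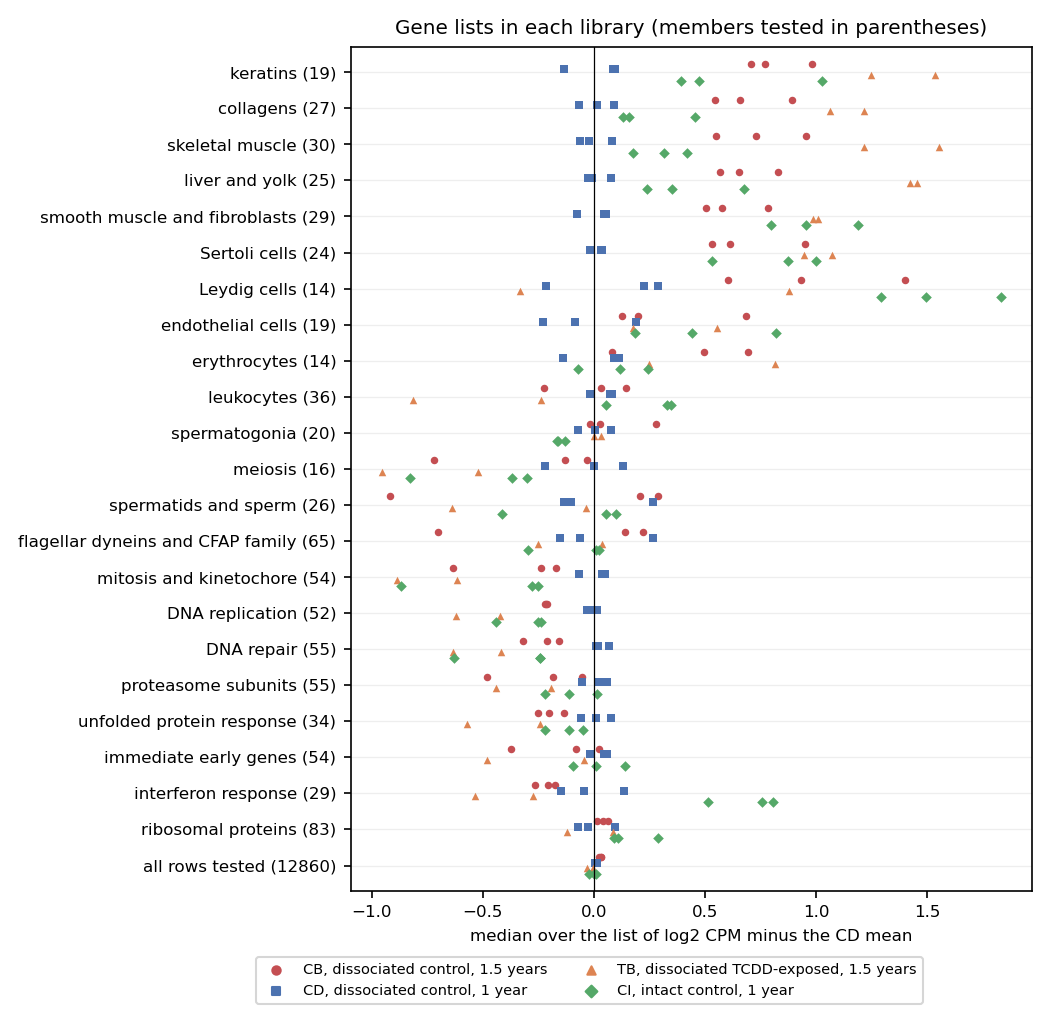
Gene lists in each of 11 libraries: each point is the median, over the list members tested, of the log2 CPM minus the mean of the 3 CD libraries, with the number of members in parentheses. Keratins, collagens, skeletal muscle, liver, smooth muscle, Sertoli and Leydig lists lie at 0.50 or above in all CB libraries (red). Mitosis, DNA replication, DNA repair, proteasome, unfolded protein response, interferon and meiosis lists lie below 0 in all CB libraries. Ribosomal proteins and the whole set of transcripts lie near 0.

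Genes of the cell cycle and of DNA maintenance lay below CD in CB by small amounts, and none of them passed the test. For the mitosis and kinetochore list, 1 of 54 was higher and 16 lower with p under 0.05 before adjustment, 0 were called by edgeR, and the median was -0.35. For DNA replication the counts were 1 and 16 of 52 with a median of -0.25, and for DNA repair 2 and 10 of 55 with a median of -0.25, again with 0 called in each. Among all transcripts tested, 10.6% were higher and 9.88% lower with p under 0.05 before adjustment. DESeq2 called 0, 1 and 1 higher and 6, 7 and 2 lower in these 3 lists. Of single genes, mentioned after their values were seen, cyclin B gene ccnb1 was at 131, 101 and 128 CPM in CB and at 255, 207 and 244 CPM in CD (log2 fold change of -1, adjusted p = 0.053). The replicative helicase subunit gene mcm3 was at 149, 207 and 120 CPM in CB and at 262 to 282 CPM in CD (-0.82, adjusted p = 0.079). For both, CB and CD did not overlap.

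These list medians were below 0 in each CB library when set against the CD mean, at -0.17 to -0.64 for mitosis and -0.21 to -0.22 for DNA replication. They were also below 0 in every TB library (-0.62 and -0.88 for mitosis, -0.42 and -0.62 for replication) and CI library (-0.25 to -0.87 and -0.24 to -0.44). CD was thus the highest of the 4 groups for these lists. Histones had a median of -0.24 over 14 tested, proteasome subunits -0.27 over 55, nuclear respiratory chain subunits -0.16 over 74 and ribosomal proteins 0.00 over 83, each with 0 called by edgeR and 0, 1, 4 and 10 higher and 1, 8, 11 and 3 lower with p under 0.05 before adjustment. The shares at that threshold over all transcripts tested were 10.6% higher and 9.88% lower. DESeq2 called 1 respiratory chain gene, lower, and 0 in the other 3 lists.

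Interferon-response genes had a median of -0.27 over 29 tested, with 0 called by edgeR, 1 higher and 7 lower with p under 0.05 before adjustment, and 0 higher and 4 lower by DESeq2. stat2, a mediator of type I interferon signaling mentioned after its values were seen, was at 146, 195 and 143 CPM in CB and 357, 315 and 277 CPM in CD (log2 fold change of -1, adjusted p = 0.054). The list median in CI was 0.51 to 0.80 above the CD mean, so CB and CI lay on opposite sides of CD. tnfrsf1a, described above, was the 1 called member of 40 on the apoptosis list (0.218% of all transcripts tested were called lower). The list had a median of -0.14, with 3 higher and 9 lower with p under 0.05 before adjustment. At that threshold, 10.6% of all transcripts tested were higher and 9.88% lower. In the apoptosis list DESeq2 called 1 higher and 4 lower, and limma voom 1 lower.

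Further lists, some of them tied to age or to endocrine function, had 0 members called by edgeR. Among all transcripts tested, 10.6% were higher and 9.88% lower with p under 0.05 before adjustment. Telomere maintenance genes had a median of -0.23 over 17, p53 targets and cell cycle inhibitors -0.18 over 32, sirtuin, FOXO and insulin/IGF genes 0.07 over 35, and antioxidant and glutathione genes -0.13 over 47. Genes of cholesterol synthesis had a median of -0.25 over 29, retinoid metabolism 0.27 over 34, glycolysis 0.14 over 38, and claudins and other tight junction genes 0.30 over 43. None of the members of these 8 lists was called by edgeR, and with p under 0.05 before adjustment they had 0, 1, 5, 5, 0, 9, 7 and 7 higher and 2, 4, 2, 5, 4, 2, 1 and 3 lower, in the order given. DESeq2 called 0, 1, 2, 2, 0, 6, 3 and 3 higher and 0, 1, 1, 0, 1, 1, 0 and 0 lower in them. Circadian clock genes (46 tested, 4 higher and 8 lower at that threshold), steroid receptors and aromatase (19, with 3 and 1), piRNA pathway genes (17, with 3 and 3), oocyte genes (32, with 2 and 4), adipocyte genes (7, with 1 and 0) and AhR signaling genes (20, with 3 and 4) also had 0 called by edgeR, and by DESeq2 3, 0, 1, 0, 1 and 2 higher and 6, 0, 2, 1, 0 and 1 lower. cyp1a, the classical target of the dioxin receptor AhR, was at 5.93, 3.52 and 5.52 CPM in CB and at 1.69, 2.19 and 3.42 CPM in CD, both from fish that received vehicle (log2 fold change 1.00, adjusted p = 0.22); it was chosen for mention after its values were seen.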

How the data were processed

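The authors made 3′ mRNA libraries (QuantSeq) from testis RNA, aligned the reads to GRCz11 and deposited raw counts per RefSeq transcript in 1 table for each comparison; the counting program is not given in the sources used here. The authors' log2 fold changes, log CPM, likelihood ratios, p-values and FDR in these tables were not used. The count rows of the table of CB and TB were reversed before use, since its accessions run the other way: local deviations of CB and CD then correlated at r = 0.43 (0.29 to 0.53 in 10 blocks of rows), and at 0.03 at most as deposited or shifted. Columns of CB and TB carry only a group and number. Tables were joined on 14792 accessions, and symbols were taken from RefSeq (GRCz12tu) for 97.6%.

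Counts were fitted with edgeR 4.0.16 (filterByExpr, TMM, robust glmQLFit, CB and CD only, no block). The SE given for a log2 fold change was derived from that fit, as its absolute value divided by the square root of the F statistic. The p-values measure only the spread between libraries within each set, which may include that between exposure blocks. DESeq2 1.42.0, limma 3.58.1 voom and other settings were alternatives, and functions were tested on simulated data. Genes were named by rule: of called transcripts with at least 5 CPM in the higher group and groups apart, the 8 largest changes and 6 smallest p in each direction, called list members, and up to 4 defining markers of a cell type. The members and gene lists were chosen with earlier results of these data known. Mitochondrially encoded genes were listed but 0 were in the joined table. 1 gene that the rule takes is not reported here.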

Additional observations from a re-analysis of the deposited data

How the results depend on the processing

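The number of transcripts called depended on the test and the filter. With DESeq2 it was 1015 (610 higher and 405 lower in CB), with the likelihood ratio test 904 (541 and 363), with upper quartile factors 235 (188 and 47), without a filter 184 (112 and 72), with a stricter filter 199 (131 and 68), with limma voom 26 (10 and 16), with all 11 libraries in the fit 28 (15 and 13), and after thinning to the smallest total 38 (20 and 18). Leaving out 1 library in turn gave 13 to 312 calls (4 to 165 higher and 8 to 147 lower), and 209 to 337 higher and 166 to 234 lower transcripts by the thresholds of the study. By those thresholds 118 were lower with all 11 libraries in the fit. The cause of these shifts was not tested.

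Same-numbered libraries of CB and CD did not deviate together (r = -0.0035, 0.022 and 0.024). Correlations near 0 cannot show whether same-numbered libraries share an exposure block, and no label gives the block. With the replicate block 18 were called (8 higher and 10 lower).

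Of 40 list medians, 30 kept their sign in all 17 alternatives. The 39 gene results followed kept their direction wherever tested. The number of called transcripts with TB on the CB side and CI on the CD side was 29. With 1 TB or CI library left out, chosen after seeing the data, it was 30 to 38. This number can only stay or rise when a library is left out, so these values do not measure its stability. The share over all transcripts tested rose as well, from 7.43% to between 9.73% and 15.1%. With 3 libraries a set, transcripts near 1 CPM and small differences are covered weakly.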
